A study of Homo sapiens with 4 samples.

Results

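The 8 genes examined here, HLA-B, HLA-C, HLA-E, B2M, TAP1, TAP2, TAPBP and NLRC5, encode the core of MHC class I antigen presentation. They were given as a list of symbols that uses no measured value as a criterion, drawn up with earlier results of these data known, and each symbol matched 1 of the 67008 gene entries of the count table. RNA of SAS cells, a human line from a squamous carcinoma of the tongue, was sequenced after viral delivery of an shRNA against luciferase (Ctrl, 2 libraries) or against STAU1 (shSTAU1, 2 libraries). STAU1 encodes a protein that binds double-stranded RNA and takes part in the decay and transport of mRNA. All 4 libraries carry the genotype label WT, and both groups were infected with virus. The number of shRNA sequences, and whether the libraries of a group came from separate cultures, are not given in the sources used here, so that p-values measure only the spread between these libraries.

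Class I molecules display peptides made inside the cell to CD8+ T cells. Proteins are cut by the proteasome, the peptides are pumped into the endoplasmic reticulum by TAP1 and TAP2, trimmed there by ERAP1 and ERAP2, and loaded with the help of tapasin, the product of TAPBP, onto a heavy chain paired with beta-2-microglobulin, the product of B2M. HLA-B and HLA-C are classical heavy chains, HLA-E is a less variable heavy chain read mainly by receptors of natural killer cells, and NLRC5 is a transactivator of these genes. Interferon signalling through IRF1 raises the whole set, and loss of class I presentation is a known route by which squamous carcinomas escape T cells.

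The libraries held 32206655 to 36301574 counts. STAU1 had 8362 and 8218 counts in Ctrl against 1449 and 1467 in shSTAU1, 16.6% of the control level in CPM (counts scaled to library size by TMM), a log2 fold change of -2.59 (SE 0.13, edgeR quasi-likelihood adjusted p = 0.00103). The labels also name the mouse line C3H 10T1/2 beside the organism human and the cell type oral cancer line, and the growth protocol and the design text name SAS. All 7 epithelial markers passed the filter on low counts, with a summed level of 5768 to 6154 CPM in Ctrl and 7561 to 9243 CPM in shSTAU1, and KRT5 and SFN, an epithelial keratin and stratifin, rose (adjusted p = 0.0408 and 0.0285, edgeR). Of the 7 fibroblast markers, 4 passed the filter, with a summed level of 17.9 to 22.8 CPM in Ctrl and 10.2 to 11.1 CPM in shSTAU1, LUM, DCN and COL3A1 had at most 1 count in any library, and the collagen chain COL1A1 fell (adjusted p = 0.0360, edgeR). COL1A2, its partner chain, was not called and lay in the other direction, with 1.19 and 1.68 CPM in Ctrl and 2.15 and 3.62 CPM in shSTAU1 (log2 fold change 1.01, SE 0.41, adjusted p = 0.185, edgeR). The 8 immune markers summed to 2.55 to 3.19 CPM, 2 of them passed the filter and neither was called, PTPRC had at most 1 count in any library, and NKG7 had 0.

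The promoters of the class I genes carry short motifs through which these inputs act, and they are shown because the called gene described further on, NFYB, encodes a subunit of the factor that binds one of them. Promoter sequences from 250 bases before to 50 bases after the annotated start were taken from RefSeq on GRCh38.p14, where 6 of the 8 genes were matched (HLA-E and NLRC5 were not), with 7 promoters. Both strands were searched for GAAA and GAAA separated by 2 bases, a core of the interferon-stimulated response element, TTCNNNGAA, the interferon-gamma activated site, CCAAT, the Y box bound by NF-Y, TGACG, a core of the X2 box bound by CREB-family proteins, and GGG and TTCC separated by 2 or 3 bases, sites of the NF-kappaB family. Capitals mark matches of these motifs, and a match on the other strand appears as its reverse complement. The heavy chain genes are shown with their Y boxes and X2 core:
HLA-B: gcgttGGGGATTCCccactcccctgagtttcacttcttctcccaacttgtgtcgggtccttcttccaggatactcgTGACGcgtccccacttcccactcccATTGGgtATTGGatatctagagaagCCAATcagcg
HLA-C: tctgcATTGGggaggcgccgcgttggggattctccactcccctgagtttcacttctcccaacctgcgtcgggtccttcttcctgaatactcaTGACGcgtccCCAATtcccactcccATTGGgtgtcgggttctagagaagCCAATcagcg
The light chain, transporter and tapasin genes are shown with their interferon-response cores:
B2M: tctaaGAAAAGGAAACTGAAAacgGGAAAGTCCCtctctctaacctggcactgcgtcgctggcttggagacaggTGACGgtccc
TAP1: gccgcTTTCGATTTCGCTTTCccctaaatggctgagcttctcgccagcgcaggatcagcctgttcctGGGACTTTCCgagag
TAP2: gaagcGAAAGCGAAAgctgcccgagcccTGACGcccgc
TAPBP: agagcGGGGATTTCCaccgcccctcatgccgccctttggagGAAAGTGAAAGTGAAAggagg
These stretches lie at chr6:31357226-31357361 for HLA-B, chr6:31272139-31272289 for HLA-C, chr6:32853762-32853843 for TAP1, chr6:32838765-32838802 for TAP2 and chr6:33314078-33314139 for TAPBP, all on the minus strand, and at chr15:44711368-44711451 on the plus strand for B2M.

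The interferon-response core was found in the promoters of B2M, TAP1, TAP2 and TAPBP, 4 of the 6 matched genes, against 3.57% of 35116 RefSeq promoters of the same length. In B2M, TAP1 and TAPBP it was present as a pair of overlapping copies. The Y box motif was found in HLA-B, HLA-C, B2M and TAP1, again 4 of 6, against 34.6% of all promoters, and the X2 core in HLA-B, HLA-C, B2M and TAP2, against 24.6%. The shorter NF-kappaB motif was found in 3 of the 6 genes against 6.58% of promoters, and the longer one also in 3 against 6.52%, and in TAPBP the 2 overlap. The interferon-gamma activated site was found in 1, TAP1, against 7.66%. It lay in the other TAP1 promoter (chr6:32852712-32853011), not in the one shown above. A gene was counted where any of its promoters matched, while the shares of all promoters are per promoter. A match is a description of the letters and not evidence of binding.

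Of the 4 class I genes that passed the filter on low counts none was called by the test, and the other 4 had too few counts to be tested. A gene that is not called is not thereby shown to be unchanged. HLA-B and HLA-C also lie in a region, described below, where counts cannot be read as expression. Of all 14303 genes tested, 372 passed an adjusted p of 0.05, 2.6%, with 161 higher in shSTAU1 (1.13%) and 211 lower (1.48%). None of HLA-B, HLA-C, B2M and NLRC5 was among them. None was called by limma-voom, HLA-C, B2M and NLRC5 were not called by DESeq2, which gave no adjusted p for HLA-B, and none had an unadjusted p under 0.05 in the edgeR test, which 24.5% of all tested genes had. The groups did not overlap in CPM for 1 of the 4, B2M, against 56.6% of all tested genes. With 2 libraries a group, a permutation of the labels cannot give a two-sided p under 0.333. The median log2 fold change was 0.06 over the 4 genes and 0.01 over all genes tested.

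Among the heavy chains, HLA-B (ENSG00000234745, chr6:31269491-31357188 in GENCODE 29, minus strand) had 16 and 0 counts in Ctrl against 12 and 3 in shSTAU1. Its values ranged from 0 to 0.476 CPM and the groups overlapped, with a log2 fold change of -0.16 (SE 1.29, 95% interval -3.17 to 2.86, adjusted p = 0.953, edgeR). Limma-voom turned this to 1.10, and leaving out Ctrl replicate 1, the library with 16 counts, turned it to 5.90, so that no direction can be given. HLA-C (ENSG00000204525, chr6:31268749-31272130, minus strand) had 70 and 47 counts in Ctrl and 52 and 31 in shSTAU1, or 2.08, 1.44, 1.49 and 0.877 CPM. The lowest value was in shSTAU1 and the highest in Ctrl, but the groups overlapped, with a log2 fold change of -0.57 (SE 0.45, 95% interval -1.62 to 0.49, adjusted p = 0.471, edgeR). HLA-E (ENSG00000204592, chr6:30489467-30494205, plus strand) was listed at 0 in every library. By counting error alone a 0 allows up to 3 counts in a library, a limit on the reads in this table and not on the RNA of the gene in the cells.

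The heavy chain genes are related in sequence, and how reads that match more than 1 of them were counted was not tested. Over the longest open reading frame of the GENCODE 29 transcripts, HLA-B and HLA-C were identical at 92.6% of 1089 aligned bases, HLA-B and HLA-E at 86.9% of 1075, and HLA-C and HLA-E at 86.7% of 1077. A stretch of 66 bases is the longest that HLA-B and HLA-C share without a difference. It is shown beside the matching bases of HLA-E, with capitals in HLA-E for the 6 bases that differ:
HLA-B: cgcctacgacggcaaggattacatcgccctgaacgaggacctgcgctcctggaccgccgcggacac
HLA-C: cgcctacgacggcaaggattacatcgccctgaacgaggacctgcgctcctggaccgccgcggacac
HLA-E: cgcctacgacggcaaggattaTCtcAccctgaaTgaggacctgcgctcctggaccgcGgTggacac
These are the alleles of the reference, not those of SAS cells. The annotated range of HLA-B also overlaps that of HLA-C.

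B2M (ENSG00000166710, chr15:44711487-44718877, plus strand), the light chain shared by all class I heavy chains, had 57 and 69 counts in Ctrl and 85 and 84 in shSTAU1. These are 1.70 and 2.11 CPM against 2.44 and 2.38 CPM, so that both shSTAU1 libraries lay above both Ctrl libraries. The Ctrl mean was 1.90 CPM ± 0.29 (SD, n = 2). The shSTAU1 mean was 2.41 CPM ± 0.046 (SD, n = 2), a ratio of 1.27. The log2 fold change of 0.34 was no larger than its standard error of 0.34 (95% interval -0.46 to 1.14, adjusted p = 0.575, edgeR).

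The transporter and tapasin genes were listed at or near 0. TAP1 (ENSG00000168394, chr6:32845209-32853978, minus strand), a subunit of the peptide pump, had 5 counts in shSTAU1 replicate 1 and 0 in the other 3 libraries. TAP2 (ENSG00000204267, chr6:32821833-32838780, minus strand), the partner subunit, and TAPBP (ENSG00000231925, chr6:33299694-33314387, minus strand) each had 1 count in shSTAU1 replicate 2 and 0 elsewhere. These 3 genes did not pass the filter and no fold change was computed for them. PSMB9 and PSMB8, the immunoproteasome subunits encoded beside TAP1 and TAP2, were listed at 0 in all 4 libraries.

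NLRC5 (ENSG00000140853, chr16:56989485-57083531, plus strand) was the member with the most counts, 702 and 821 in Ctrl and 1179 and 773 in shSTAU1. In CPM these were 20.9 and 25.1 against 33.9 and 21.9, so that shSTAU1 replicate 1 stood above the other 3 libraries and shSTAU1 replicate 2 lay between the Ctrl libraries. The Ctrl mean was 23.0 CPM ± 2.97 (SD, n = 2). The shSTAU1 mean was 27.9 CPM ± 8.48 (SD, n = 2), with a log2 fold change of 0.28 (SE 0.23, 95% interval -0.26 to 0.82, adjusted p = 0.493, edgeR). The value depended on which shSTAU1 library was kept. Without shSTAU1 replicate 1 the log2 fold change was -0.061, and without shSTAU1 replicate 2 it was 0.55. Either fit leaves 1 shSTAU1 library, so only the fold change is given. In bulk libraries, a change in the RNA per cell and a change in the share of cells that make it cannot be told apart.

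**Figure D1:**
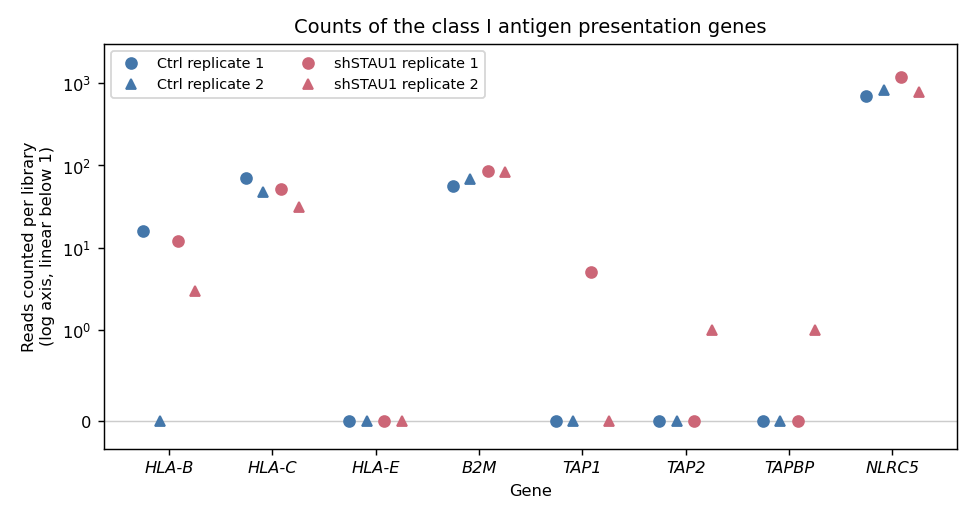
Reads counted for each class I gene in each library, on a log axis that is linear below 1, with Ctrl in blue, shSTAU1 in red, circles for replicate 1 and triangles for replicate 2. NLRC5 lies between 702 and 1179 counts, B2M and HLA-C between 31 and 85, HLA-B at 16 or fewer, and HLA-E, TAP1, TAP2 and TAPBP at or near 0.

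Divided by the length of the longest annotated transcript, the counted values followed the order NLRC5, B2M, HLA-C and HLA-B. This is an order of values in the table, since HLA-C and HLA-B lie in a region, described next, where counts cannot be read as expression. B2M stands in a short run of low genes, described further on. Whether its count is affected in the same way was not tested. NLRC5 reached 3.06 to 4.96 CPM per kb, above every other class I gene in all 4 libraries. B2M was at 0.705 to 1.02 CPM per kb and HLA-C at 0.467 to 1.11 CPM per kb, and their ranges overlapped. HLA-B was at 0 to 0.308 CPM per kb, below the range of HLA-C. The profile of the 4 tested genes over the libraries, each centred on its own mean log2 CPM, was on average 0.33 and -0.45 in Ctrl and 0.42 and -0.30 in shSTAU1, higher in replicate 1 of each group. In Ctrl this held for HLA-C and for HLA-B, at 16 and 0 counts. NLRC5 (20.9 and 25.1 CPM) and B2M (1.70 and 2.11 CPM) were higher in Ctrl replicate 2. The mean profile, and the genes nearest to it, thus depend on HLA-B, a gene near the floor, and do not describe each class I gene. Among genes of at least 10 CPM, the 5 nearest profiles by Euclidean distance over the 4 libraries belonged to MT-ATP6, a mitochondrial subunit of ATP synthase (distance 0.0632), the tetraspanin CD9 (0.102), the histone demethylase KDM7A (0.129), THSD1 (0.143) and MYADM (0.173). This is a description over 4 libraries without a test.

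The low values of HLA-B, HLA-C, HLA-E, TAP1, TAP2 and TAPBP were shared by their whole chromosomal neighbourhood. These 6 genes lie in the MHC region of chromosome 6, inside a run of 179 consecutive protein-coding genes with a mean under 100 counts, the longest such run on the autosomes by number of genes. The next by number, 66 genes on chromosome 11, covered more sequence, 9.02 Mb. The threshold of 100 counts was set after the data were seen. The run on chromosome 6 covered 4.92 Mb, from GPX6 to CUTA (chr6:28503296-33418317), and ZSCAN23, the gene before it, had a mean of 101.75 counts. Within it 152 genes, 84.9%, were listed at 0 in all 4 libraries, against 24.4% of the 19708 protein-coding genes outside it. All its genes together held 933 counts over the 4 libraries. HLA-C, with 200, had the most of any gene in the run, and the median total of a protein-coding gene outside was 298.

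Genes that every cell uses were listed at 0 there as well. The 10 such genes examined, chosen after their values were seen, were RPS18, a ribosomal protein of the small subunit, the tubulin TUBB, the splicing factors DDX39B and LSM2, the translation factor ABCF1, the mitochondrial ribosomal protein MRPS18B, the chaperone factors BAG6 and PFDN6, the kinase subunit CSNK2B and the membrane scaffold FLOT1. All 10 had 0 counts in all 4 libraries. Of 79 other ribosomal protein genes in the table, 5 were at 0, and the median of their mean counts was 11898. The values of the class I genes in this region, the counts of HLA-B and HLA-C included, can therefore not be read as the level of these genes in SAS cells, and a response of HLA-E, TAP1, TAP2 or TAPBP to shSTAU1 was not measurable in this table. Whether the alignment reference held alternate-haplotype sequences of the region, and how reads that match several places were counted, are not given in the sources used here and were not tested.

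**Figure D2:**
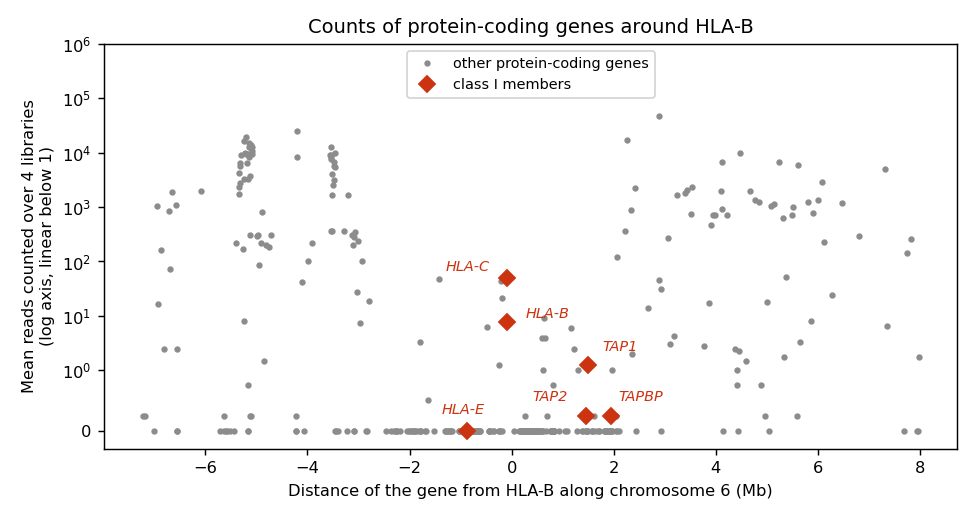
Mean reads counted over the 4 libraries for each protein-coding gene of chromosome 6, on a log axis that is linear below 1, against its distance from HLA-B in Mb. Most genes from about -3 to 2 Mb lie at 0 with the 6 class I genes among them (red diamonds), and none there exceeds a mean of 100, while genes on both sides lie far above.

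The transcripts of these genes are mostly distinct in sequence within the primary annotation. Every run of 75 bases in the GENCODE 29 transcripts of a gene was compared, on both strands, with the transcripts of all other genes. The share found in no other gene was 98.7% for HLA-C, 98.3% for HLA-E, 98.9% for TAPBP and 92.0% for TAP1. It was 85.8% for HLA-B, with 468 of its 478 shared runs in AL671883.2, and 69.2% for TAP2. Over the 152 genes at 0 in the run the median was 98.4%, with 100 of them over 90%.

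B2M and NLRC5 lie outside that region. B2M stood in a short run of 4 genes with a mean under 100 counts, with PATL2, TRIM69 and TERB2, of which TRIM69 and TERB2 were at 0. The genes on either side were SPG11 with a mean of 6264.5 counts and SORD with 740.75, and 100% of the 75-base runs of B2M occurred in no other gene. The genes at 0 in the chromosome 6 run had a median share of 98.4%, so this share does not tell whether reads of a gene were counted. Whether the count of B2M can be read as its level was not tested. NLRC5 lay in no run of low genes. HERPUD1 and CPNE2, near it on either side, had means of 1392.75 and 897.25 counts, and 100% of its 75-base runs were its own.

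The other genes of the pathway, 55 in lists by role, showed 1 call, NFYB. Of the 55, 15 were at 0 in every library and 34 were tested. A count of 1 in 34 is near the share of all tested genes that were called, 2.6% (372 of 14303). The groups did not overlap for 15 of the 34, 44.1%, against the 56.6% of all tested genes, and 10 had an unadjusted p under 0.05, 29.4% against 24.5%. Their median log2 fold change was 0.06.

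**Figure D3:**
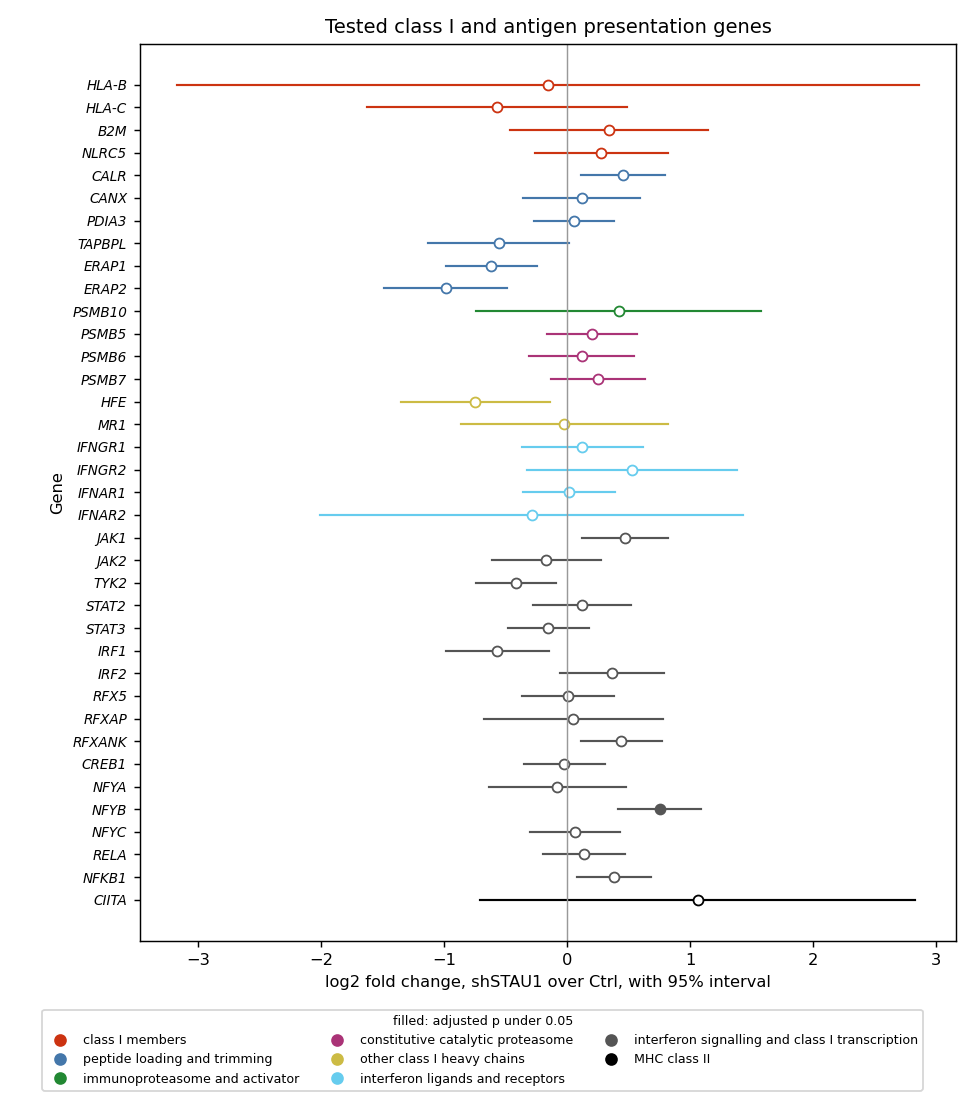
Log2 fold change of 37 of the 38 tested class I and antigen presentation genes, shSTAU1 over Ctrl, from edgeR with its 95% interval, coloured by list and filled where the adjusted p was under 0.05. NFYB at 0.75 is the 1 filled point, and ERAP2 at -0.99 and ERAP1 at -0.62 are open points whose intervals lie below 0.

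NFYB (chr12:104117077-104138289, minus strand) encodes the B subunit of NF-Y, the trimer that binds the CCAAT motif seen in the promoters of HLA-B, HLA-C, B2M and TAP1. It had 1230 and 1168 counts in Ctrl and 1976 and 2296 in shSTAU1, or 36.6 and 35.7 CPM against 56.8 and 65.0 CPM. Both shSTAU1 libraries lay above both Ctrl libraries, and NFYB rose 1.68-fold (log2 fold change 0.75, SE 0.14, adjusted p = 0.0440, edgeR). The call was lost without the filter on low counts (adjusted p = 0.116, edgeR) and with each library corrected for GC content and transcript length (0.0505, edgeR). It was kept with DESeq2 (adjusted p = 0.00157), limma-voom (0.0478) and library size only (0.0493, edgeR). The replicate block, with or without the correction, kept it too. Over all settings the log2 fold change stayed between 0.64 and 0.86. Without Ctrl replicate 1 or 2 it was 0.77 or 0.74. Those fits leave 1 Ctrl library, so only the fold change is given. The partner subunits NFYA and NFYC, named after their values were seen, had log2 fold changes of -0.08 and 0.06 (adjusted p = 0.867 and 0.836, edgeR).

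Of the 6 peptide loading and trimming genes all were tested and none was called, with a median log2 fold change of -0.25. ERAP2 (chr5:96875939-96919716, plus strand), an aminopeptidase that trims peptides to the length class I grooves hold, had 386 and 359 counts in Ctrl and 208 and 189 in shSTAU1. That is 11.5 and 11.0 CPM against 5.97 and 5.35 CPM, with the groups apart and the shSTAU1 mean at 50.5% of the Ctrl mean (log2 fold change -0.99, SE 0.21, adjusted p = 0.0568, edgeR). ERAP1 (chr5:96760810-96808100, minus strand), its neighbour on chromosome 5 and a partner in trimming, had 174 and 175 CPM in Ctrl and 130 and 97.8 CPM in shSTAU1. Its groups were apart as well, with the shSTAU1 mean at 65.3% of Ctrl (log2 fold change -0.62, SE 0.16, adjusted p = 0.0763, edgeR). Both genes narrowly missed the threshold in the edgeR test and passed it in DESeq2 (adjusted p = 0.00847 for ERAP2 and 0.0115 for ERAP1). DESeq2 called 1449 genes in all, against 372 in edgeR. Without shSTAU1 replicate 1 or 2 the log2 fold change was -1.06 and -0.92 for ERAP2, and -0.82 and -0.44 for ERAP1. Without Ctrl replicate 1 or 2 it was -0.96 and -1.02 for ERAP2, and -0.62 and -0.61 for ERAP1. These fits leave 1 library in a group, so only the fold change is given. Of the loading factors, named after their values were seen, the chaperone CALR had a log2 fold change of 0.45 (adjusted p = 0.118) and the tapasin-related TAPBPL -0.55 (adjusted p = 0.217), and CANX and PDIA3, a chaperone and an oxidoreductase of the loading complex, had 0.12 and 0.06 (adjusted p = 0.751 and 0.827, edgeR).

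**Figure D4:**
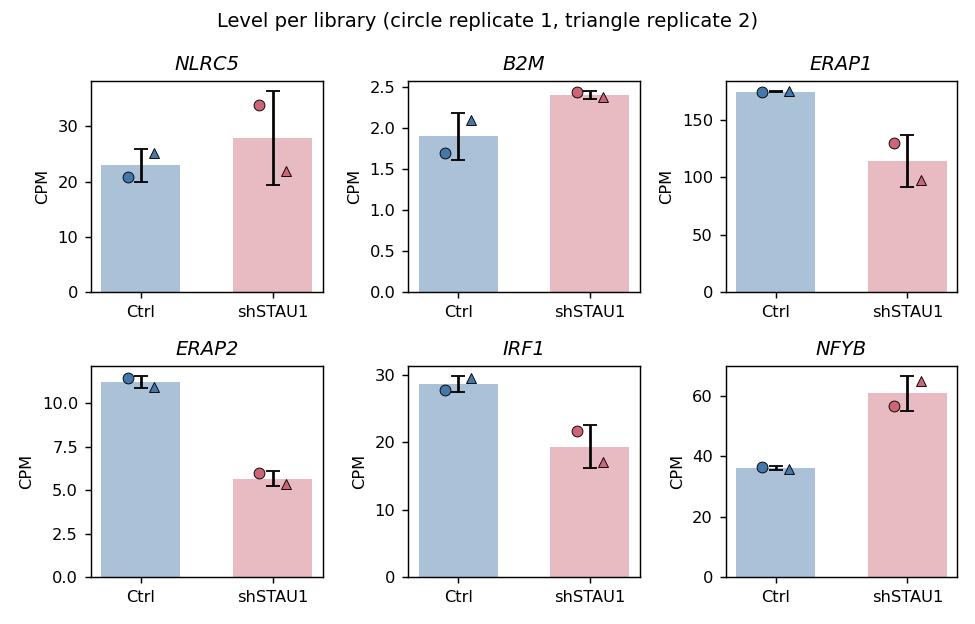
CPM of NLRC5, B2M, ERAP1, ERAP2, IRF1 and NFYB in each library, with bars for the group mean, error bars for the SD (n = 2), circles for replicate 1 and triangles for replicate 2. The groups overlap for NLRC5 and are apart for the other 5 genes, with ERAP1, ERAP2 and IRF1 lower and B2M and NFYB higher in shSTAU1.

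The peptide-producing proteasome was only partly readable. Of the 5 genes of the immunoproteasome and its activator, 4 were at 0 in all libraries. PSMB8 and PSMB9 lie in the chromosome 6 run, and PSME1 and PSME2, the subunits of the PA28 activator, lie in a run of 36 genes on chromosome 14, all 36 at 0 (chr14:24052000-24379604, 0.328 Mb). PSMB10, the catalytic subunit outside both regions, had 28 and 30 counts in Ctrl and 53 and 29 in shSTAU1 (log2 fold change 0.42, SE 0.50, adjusted p = 0.639, edgeR). All 3 constitutive catalytic subunits were tested and none was called. PSMB7 and PSMB5 had log2 fold changes of 0.25 and 0.20 (adjusted p = 0.383 and 0.457, edgeR), and the groups overlapped for both. Without shSTAU1 replicate 1, a fit that leaves 1 shSTAU1 library, PSMB7 was at 0.45.

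Of the 7 other genes with a class I heavy chain fold, 2 were tested and neither was called, and HLA-G, MICA and MICB were at 0 in the chromosome 6 run. HFE, which binds B2M and controls iron uptake, lies on chromosome 6 outside the run. It had 208 and 217 counts in Ctrl and 119 and 149 in shSTAU1, with the groups apart (log2 fold change -0.75, SE 0.26, unadjusted p = 0.0219, adjusted p = 0.135, edgeR). MR1, which presents vitamin metabolites to MAIT cells, had a log2 fold change of -0.02 (adjusted p = 0.975, edgeR).

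Of the 7 interferon ligand and receptor genes, 4 were tested and none was called. IFNG and IFNL1, which encode interferon gamma and lambda, were at 0 in every library, and IFNB1 had 5 counts in 1 Ctrl library and 0 elsewhere. The interferon gamma receptor chains IFNGR1 and IFNGR2 had log2 fold changes of 0.12 and 0.53 (adjusted p = 0.753 and 0.404, edgeR). The interferon gamma receptor was thus detected in all 4 libraries, with 1863 to 2855 counts for IFNGR1 and 61 to 142 for IFNGR2.

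Of the 19 genes of interferon signalling and class I transcription, 17 were tested, 1 rose (NFYB), none fell and 16 did not pass. The following were named after their values were seen. IRF1, the factor that carries the interferon gamma signal to class I promoters, had 936 and 967 counts in Ctrl and 753 and 604 in shSTAU1, with the groups apart (log2 fold change -0.57, SE 0.18, unadjusted p = 0.0145, adjusted p = 0.112, edgeR). The kinase JAK1, RFXANK, a subunit of the RFX complex that binds the X box, and NFKB1 had log2 fold changes of 0.47, 0.44 and 0.38 (adjusted p = 0.114, 0.114 and 0.126, edgeR). The kinase TYK2 was at -0.41 (adjusted p = 0.127, edgeR). IRF9, the DNA-binding subunit of the type I interferon factor, was listed at 0 in all libraries and lies in the chromosome 14 run.

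MHC class II genes, which present peptides from outside the cell and are made mainly by immune cells, could not be read for most members either. Of the 8, 5 were at 0 in every library, all in the chromosome 6 run, and 1, CIITA, the class II transactivator related to NLRC5, was tested. It had 10 and 4 counts in Ctrl and 21 and 10 in shSTAU1 (log2 fold change 1.06, SE 0.76, adjusted p = 0.419, edgeR). CD74, the invariant chain encoded on chromosome 5, had 0 counts in both Ctrl libraries and 6 and 7 in shSTAU1, below the filter.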

How the data were processed

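Total RNA of the 4 libraries was sequenced after TruSeq RNA Exome capture, in which probes select coding regions. The authors deposited raw read counts per gene as whole numbers. The submitters' processing notes name Partek and hg38, and neither the aligner nor the counter, strand setting and annotation release is given in the sources used here. The 4 count columns were matched to libraries by name.

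Entries were matched by Ensembl identifier, version removed, to GENCODE 29 on GRCh38, which held 58516 of the 67008 entries. The other 8492, some of which may be alternate-haplotype copies, held 0.132% of the counts and were not named. Totals per library are raw counts, and intervals and floors cover counting error only. Libraries within a group differed beyond counting noise (chi-square over degrees of freedom, 23.4 in Ctrl and 56.4 in shSTAU1) and were kept as replicates.

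Groups were compared in R 4.3.3 with edgeR 4.0.16 (filterByExpr, TMM, quasi-likelihood test, Benjamini-Hochberg adjustment over all tested genes, threshold 0.05). Tested genes held 99.9% of the counts, and the biological coefficient of variation was 19.1%. CPM uses TMM-scaled library sizes. Alternatives were DESeq2 1.42.0, limma-voom (limma 3.58.1), no low-count filter, library size without TMM, the replicate number as a block, a correction for GC content and transcript length with and without that block, 2 other thresholds and leaving out each library. The edgeR test, alone, with the block or with the correction, DESeq2 and limma-voom were tested on simulated data, in which 200 genes changed by a log2 fold change of 2 in size. They recovered most of these genes, and the share of false calls lay well above the threshold set. For edgeR alone 39 of 203 calls were false, so that a single call is less firm than its adjusted p. The recovery of smaller changes, such as that of NFYB, was not tested. Promoters were searched in Python 3.11.15 with pandas 2.3.3, transcripts were aligned with biopython 1.88, and plots were drawn with matplotlib 3.10.9.

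The genes and lists were chosen with earlier results of these data known. Named genes were STAU1, the members, every called gene of each other list or else its 2 largest log2 fold changes at a mean of at least 1 CPM, PSMB8, PSMB9 and the 5 nearest profiles. The lists were peptide loading and trimming, immunoproteasome and activator, constitutive catalytic proteasome, other class I heavy chains, interferon ligands and receptors, interferon signalling and class I transcription, and MHC class II. Any other gene was named with its values known. Some genes of the given lists and their neighbourhoods are counted but not reported by name here.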

Additional observations from a re-analysis of the deposited data

How the results depend on the processing

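The number of genes called, 372, was 363 with limma-voom and 404 with library size only, and it was 1449 with DESeq2, 11 without the filter on low counts, 158 with the length and GC correction, 1585 at an adjusted p under 0.10 and 2098 by an unadjusted p under 0.05 and a fold of 1.5. It ran from 0 without Ctrl replicate 1 to 2780 without shSTAU1 replicate 1, with 64 without Ctrl replicate 2 and 2203 without shSTAU1 replicate 2. The cause was not tested. A fit with a library left out holds 1 library in that group, so that its spread rests on the other group alone. No class I gene was called under these settings except NLRC5 without shSTAU1 replicate 2, so that leaving out a library gave 0 to 1. The other pathway genes gave 1 call, and 3 with DESeq2, 0 without the filter, 0 with the length and GC correction, 3 at 0.10, 4 by fold change and 0 to 8 with a library left out. STAU1 stayed between -2.60 and -2.58 with a library left out, with an adjusted p of 0.490 without Ctrl replicate 1.

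The replicate numbers were not taken as pairs, since the labels do not say that a number marks a batch and there are 2 pairs (correlation of the deviations of same-numbered libraries 0.271). With the replicate block there were 4087 calls among 14303 tested genes, 0 of class I genes and 10 of the 34 other pathway genes tested. ERAP2 (adjusted p = 7.61e-05), ERAP1 (1.22e-06) and HFE (0.0181, edgeR) were among the 10. With the replicate block and the length and GC correction there were 4342 calls among the 14303. These held 1 class I gene (NLRC5, log2 fold change 0.45, adjusted p = 0.0122, edgeR) and 9 of the 34. Either fit with the block leaves 1 residual degree of freedom in the 4 libraries. With the block the unadjusted p of STAU1 went from 7.20e-08 to 4.58e-98 (edgeR), at a log2 fold change of -2.59 in both fits. The p-values and numbers of calls with the block are therefore not read as stronger evidence than those without it.

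The sign turned for genes of few counts or a fold change near 0. HLA-B was at 1.10 with limma-voom, 0.22 with the replicate block and 0.11 with block and correction, and between -1.44 and 5.90 with a library left out. NLRC5 ran from -0.061 without shSTAU1 replicate 1 to 0.55 without shSTAU1 replicate 2. MR1 was at 0.13 with the correction and 0.090 with block and correction, MYADM at 0.028 with the correction with or without the block, and KDM7A at -0.016 with library size only. With a library left out, MR1 ran from -0.59 to 0.38, MYADM from -0.44 to 0.34, KDM7A from -0.38 to 0.40, PSMB10 from -0.081 to 0.79, IFNGR1 from -0.20 to 0.38, MT-ATP6 from -0.26 to 0.61, CD9 from -0.37 to 0.47 and THSD1 from -0.15 to 0.55, the lowest value of each without shSTAU1 replicate 1. Of 246 values of single genes under an alternative, 196 kept their sign and side of the threshold. The 2 other thresholds reuse the main fit, so that no sign can turn there, and this count does not measure how stable the values are.

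Summing table entries with the same symbol was not run, because each listed symbol matched 1 entry and the name table gives no symbols for other copies. A group of 2 libraries limits every comparison, and the members with under 100 counts a library limit it further, as the interval of HLA-B, -3.17 to 2.86, shows.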
